A study of Homo sapiens and Mus musculus with 18 samples.

Results

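Primed human embryonic stem cells (ESCs) of the H9 line were set against mouse epiblast-like cells (EpiLCs), the pair of cell states that stand for primed pluripotency in a time course of human and mouse gastruloids, which are embryonic stem cell aggregates that model gastrulation. The comparison used 4 of the 18 bulk RNA-seq libraries, namely 2 replicates of primed H9 and 2 of EpiLCs. H9 is an established human line, sampled here in its conventional primed culture (StemFlex medium on Geltrex), and the EpiLCs were the E14Tg2a mouse line after differentiation from naïve ESCs on fibronectin with activin A, basic FGF and knockout serum replacement. The study reports no gene targeting in H9 or E14Tg2a. Naïve H9 cells and naïve E14Tg2a ESCs (mESCs) served as the matching pair one stage earlier. The naïve H9 cells were chemically reset and kept in PXGL medium (PD0325901, XAV939, Gö6983 and LIF) after an initial phase on mouse embryonic fibroblasts. The naïve mESCs were kept in 2iLif medium, with PD0325901, LIF and CHIR99021, a GSK3 inhibitor that activates WNT. The human RUES2-GLR line in its primed state was set beside H9. The study's fluorescent tags on SOX2 (mCitrine), TBXT (mCerulean) and SOX17 (tdTomato) are taken here to be carried by RUES2-GLR.

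Each species was represented by 1 line and 1 culture protocol, so species, line and protocol cannot be told apart in any difference below. Both replicates of each stage came from a single collection batch, so p-values measure only the spread between those samples. The members are 15225 protein-coding genes whose symbol is unique in each annotation and equal in both species ignoring case, out of 44910 human and 29720 mouse genes in the count tables. Genes are written with their human symbols. A shared symbol is not a curated orthology, and a few well-known pairs with unequal symbols, such as human TBXT and mouse T, are not among the members. Levels are TPM, counts divided by gene length and scaled to the same total in every library, computed with the gene lengths of each species.

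Pluripotency is usually described as a path from a naïve state, which resembles the epiblast before implantation, through a formative state to a primed state after implantation. Mouse EpiLCs lie on the formative part of that path, shortly after the exit from the naïve state, and are known for Fgf5, Otx2 and the de novo DNA methyltransferases. Conventional human ESCs, which depend on FGF2 and activin or NODAL signalling, are described as primed. In both, POU5F1, SOX2 and NANOG keep lineage genes in check, and NODAL, FGF, WNT and BMP signals decide when the cells leave for the primitive streak, neural ectoderm or extraembryonic fates.

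The 4 libraries held 12926595 and 38771193 counts (primed H9) and 6667575 and 15050982 counts (EpiLCs), of which 94.0% to 95.2% fell on the matched genes. Genes of the mitochondrial genome took 11.7% to 13.3% of TPM in primed H9 and 5.02% to 5.08% in EpiLCs, against 53.2% to 54.2% in primed RUES2-GLR. Libraries of one group differed by more than counting noise (chi-square per degree of freedom 2.67 in primed H9 and 2.87 in EpiLCs), so neither pair looked like repeat deposits of one library, and the study describes them as biological replicates.

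Across the 15225 matched genes, the mean levels in primed H9 and EpiLCs were ordered alike in large part, with a Spearman rho of 0.756 and a Pearson r of 0.759 on log2(TPM + 1). These are descriptions across genes, which are not independent replicates, and the points share gene length and read depth. Replicates of one group had a rho of 0.997 in primed H9 and 0.992 in EpiLCs. At least 1 TPM was reached in both groups by 10372 genes, in primed H9 only by 1407 and in EpiLCs only by 973. The 152 genes in the top 1% of each group had 60 in common, 39.5% of either list, and the 1522 genes in the top 10% had 816 in common, 53.6% of either list. The median gene moved by 10.99 percentile points between the groups, 7111 genes (46.7%) stayed within 10 points, 185 stood more than 50 points higher in primed H9 and 237 more than 50 points higher in EpiLCs.

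The genes ranked highest in both groups were EEF2, HSP90AB1, RPL8, MT-CO1 and MT-ND1. EEF2, an elongation factor of the ribosome, stood at 6217 and 6322 TPM in primed H9 and 8491 and 8469 TPM in EpiLCs. For HSP90AB1, a cytosolic chaperone, the values were 5516 and 5357 TPM in primed H9 and 8906 and 9592 TPM in EpiLCs. RPL8, a ribosomal protein, had 5075 and 5088 TPM in primed H9 and 7103 and 7092 TPM in EpiLCs. None of these 3 was called, with log2 differences of −0.55, −0.88 and −0.596, each lower in primed H9. The mitochondrial transcripts MT-CO1 and MT-ND1, of cytochrome c oxidase and complex I, complete the set of the 5 genes ranked highest in both. MT-CO1 stood at 13137 and 11922 TPM in primed H9 and 14895 and 15208 TPM in EpiLCs, and MT-ND1 stood at 5992 and 4866 TPM in primed H9 and 11379 and 11307 TPM in EpiLCs. Both were lower in primed H9 in TPM, although the mitochondrial share of TPM was higher there, a share that includes MT-CO2 and MT-CO3, which had no count in EpiLCs.

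**Figure D1:**
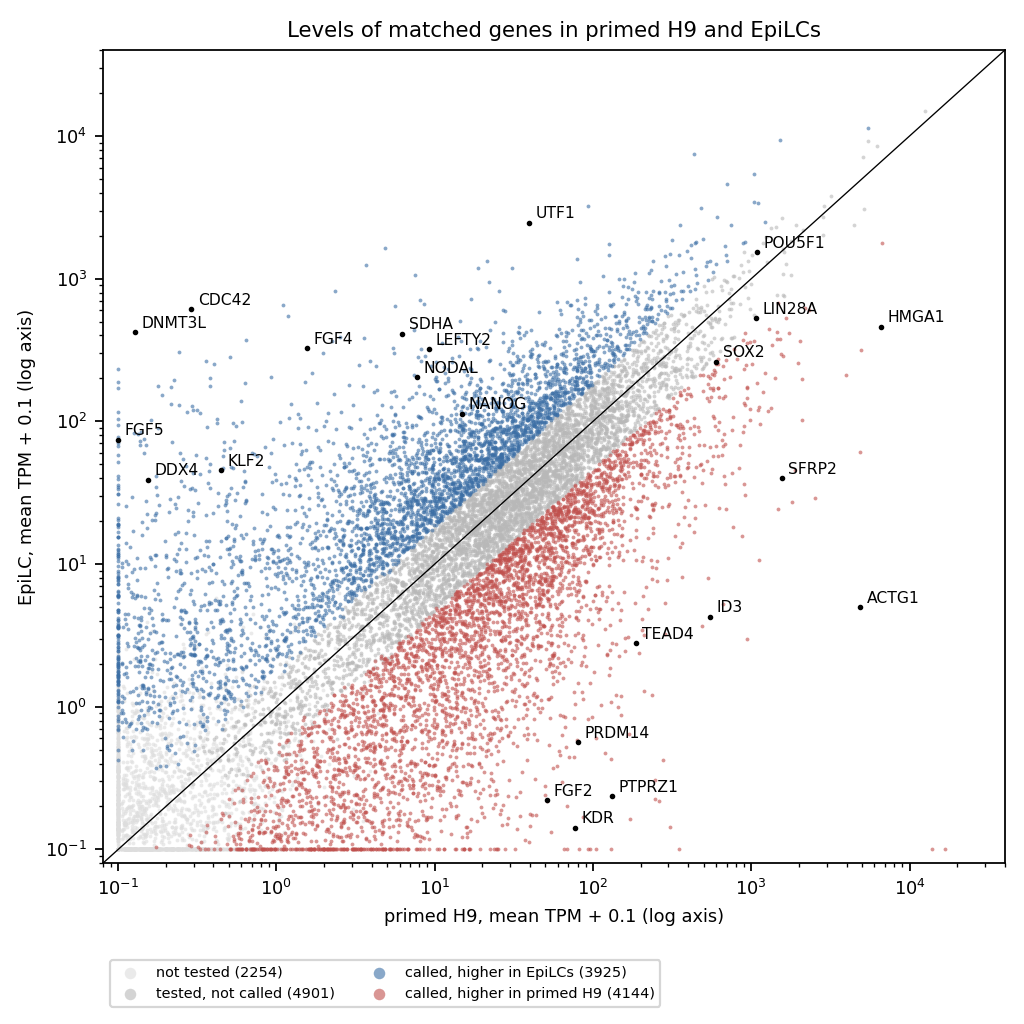
Mean TPM of each matched gene in primed H9 (horizontal log axis) against EpiLCs (vertical log axis), with a small constant added to draw zeros, each point a gene coloured by its call (red higher in primed H9, blue higher in EpiLCs, grey not called or not tested) and Y-linked genes not drawn. The points scatter around the diagonal (Spearman rho 0.756), with arms along both axes formed by genes near 0 in one group, such as CDC42 and DNMT3L (EpiLCs high) or ACTG1 and PTPRZ1 (primed H9 high).

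The test of levels was edgeR's quasi-likelihood test on counts with the gene length of each species as an offset, over 12970 matched genes with enough counts, and a call needed an adjusted p (Benjamini-Hochberg) below 0.05 together with a log2 difference beyond 1 in either direction. All log2 differences are primed H9 minus EpiLCs. By this rule 62.2% of the tested genes were called, 4144 higher in primed H9 (32%) and 3925 higher in EpiLCs (30.3%). By edgeR's adjusted p alone, 5909 genes were higher in primed H9 and 5759 in EpiLCs, so a small adjusted p sets few genes apart. Of the 4901 genes not called, 3599 had an adjusted p below 0.05, and not called therefore means mostly a smaller difference. Differences over 3 on the log2 scale made up 1626 genes (12.5%) higher in primed H9 and 1248 genes (9.62%) higher in EpiLCs. The TPM of the groups did not overlap for 94.5% of tested genes, so the absence of overlap says little about any single gene here. The count of members of a gene list is to be read against these shares, and the median log2 difference of all tested genes was 0.03. The scaling used (TMM, which centres the bulk of the genes) moved every log2 difference by −0.11 relative to plain TPM, and on the plain TPM scale 4406 genes were higher in primed H9 and 3679 in EpiLCs.

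Some of the largest differences between the species were in genes that most cells use, and these were low in every group of one species. CDC42, a small GTPase of the cytoskeleton, stood at 0.176 and 0.204 TPM in primed H9 and 636 and 587 TPM in EpiLCs, and its mean was between 0.177 and 0.525 TPM in all 5 human groups. ACTG1, the cytoplasmic gamma actin, stood at 4788 and 4969 TPM in primed H9 and 3.51 and 6.24 TPM in EpiLCs, and its highest mean in a mouse group was 32.1 TPM, in late gastruloids. RPL24, a ribosomal protein, stood at 952 and 928 TPM in primed H9 and 3.53 and 2.27 TPM in EpiLCs, with at most 2.897 TPM in any mouse group. MT-CO2 and MT-CO3, subunits of cytochrome c oxidase, reached 13966 and 16702 TPM in primed H9 and had 0 counts in both EpiLC libraries, although MT-CO1, their partner subunit, had 15051 TPM there. The authors counted reads per gene with featureCounts at its default settings, which leave out reads that align to several places or overlap several genes. The shares of a gene's exon bases that lie in exons of another gene (either strand, GENCODE annotation) were 81.4% for human NUSAP1, 99.4% for human MRPL53, 75.4% for mouse RBM42 and 46.99% for mouse RPL24, but 15.2% for human CDC42 and 5.53% for mouse ACTG1. Among genes higher in EpiLCs, 14.1% had at least 25% of their exon bases shared in human, against 7.94% of all tested genes, and among genes higher in primed H9, 8.45% had as much shared in mouse, against 5.90%. Gene length, by which levels are divided, also differed. The median ratio of human to mouse length was 1.41 for genes higher in EpiLCs, 1.02 for genes higher in primed H9 and 1.14 for all tested genes. Without division by length, 4008 genes were higher in primed H9 and 3480 in EpiLCs. The part that counting plays in these differences was not tested. A pair of alternatives chosen after seeing the data bear on the counts. With genes that reached 10 TPM in at least 1 group of each species, 1931 were higher in primed H9 and 2225 in EpiLCs of 8080 tested (369 and 312 over 3 on the log2 scale). With genes whose shared exon bases stayed under 25% in both species, 3670 and 3243 of 11382 were called (1421 and 950 over 3).

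**Figure D2:**
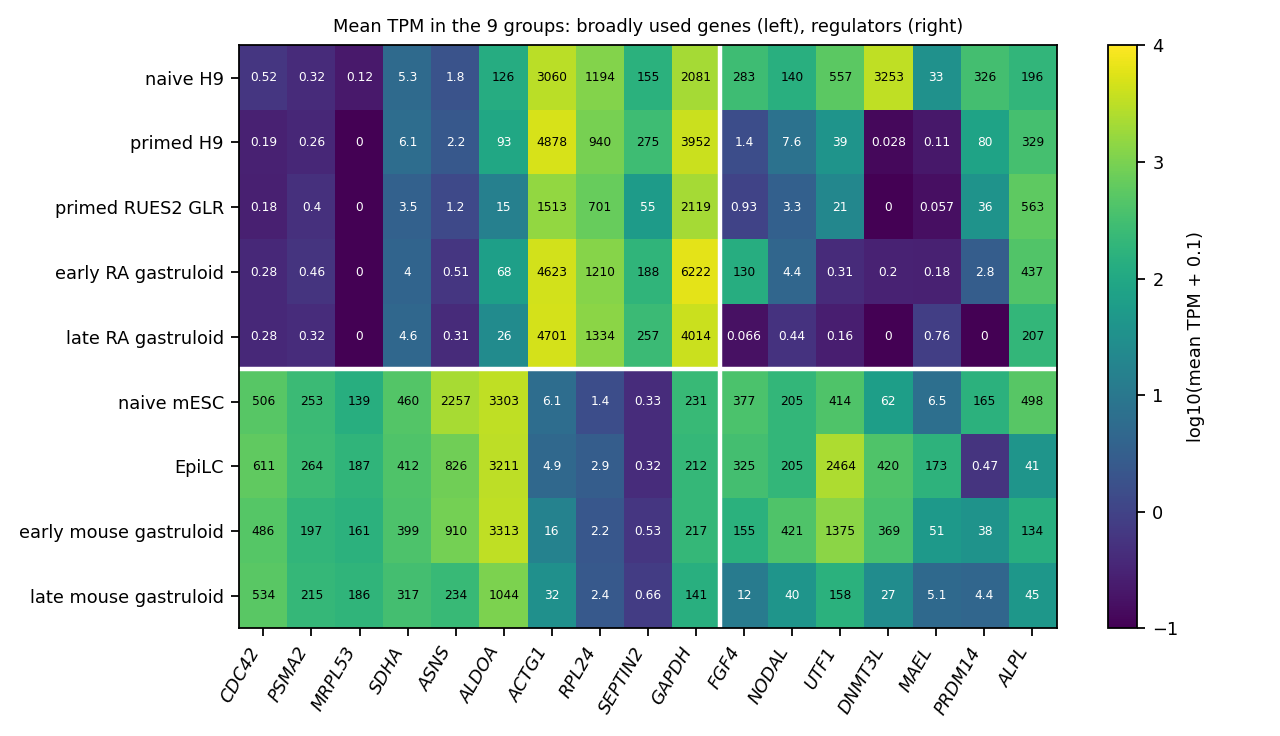
Mean TPM (printed in each cell, with colour on a log10 scale) of named genes (columns) in the 5 human and 4 mouse groups (rows, parted by a white line), 2 libraries per group. CDC42, ACTG1 and RPL24 are low in every group of one species, whereas DNMT3L and UTF1 vary between groups within a species.

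The core pluripotency factors were present in both groups, and the factors around them were split between them. Among 19 tested core pluripotency factors, 7 were higher in primed H9, 6 were higher in EpiLCs and 6 were not called, with a median log2 difference of 0.84. POU5F1, the factor that both states depend on, stood at 1096 and 1079 TPM in primed H9 and 1485 and 1595 TPM in EpiLCs and was not called (log2 difference −0.62, SE 0.06, adjusted p = 4.91e-08). SOX2, its DNA-binding partner, stood at 573 and 631 TPM in primed H9 and 268 and 254 TPM in EpiLCs and was 2.14-fold higher in primed H9 (log2 difference 1.09, SE 0.06, adjusted p = 1.35e-10), with 59.9% of the exon bases of the mouse gene lying in exons of another gene. The SOX2 call was lost in the fit of genes whose lengths lay within 1.5 times of each other (log2 difference 0.898). NANOG, a homeobox factor that stabilises pluripotency, stood at 14.6 and 15.1 TPM in primed H9 and 104 and 122 TPM in EpiLCs and was 8.33-fold higher in EpiLCs (log2 difference −3.06, SE 0.09, adjusted p = 8.82e-14). SALL4, a zinc-finger partner of POU5F1, stood at 133 and 126 TPM in primed H9 and 56.5 and 64.2 TPM in EpiLCs and missed the fold threshold by a little (log2 difference 0.97), which it passed on the plain TPM scale.

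Larger differences lay in the accessory factors. Levels of PRDM14, a regulator of epigenetic state that human ESCs need for self-renewal, were 82.9 and 77.7 TPM in primed H9 and 0.202 and 0.728 TPM in EpiLCs (128-fold higher in primed H9, log2 difference 6.997, SE 0.21, adjusted p = 1.16e-13). TEAD4, the nuclear partner of YAP in HIPPO signalling, stood at 178 and 193 TPM in primed H9 and 2.31 and 3.05 TPM in EpiLCs (60.8-fold higher in primed H9). For DPPA4, a chromatin-associated pluripotency marker, the values were 506 and 544 TPM in primed H9 and 141 and 150.3 TPM in EpiLCs (3.31-fold higher in primed H9). On the mouse side, the largest difference was in UTF1. UTF1, a chromatin factor of undifferentiated cells, had 31.9 and 46.8 TPM in primed H9 and 2390.3 and 2537 TPM in EpiLCs (64.1-fold higher in EpiLCs, log2 difference −6.003, SE 0.11, adjusted p = 5.73e-16). Levels of ZFP57, which keeps methylation at imprinted loci, were 1.62 and 0.943 TPM in primed H9 and 42.9 and 48.9 TPM in EpiLCs (44.9-fold higher in EpiLCs). RIF1, a replication-timing factor, stood at 29.6 and 31.8 TPM in primed H9 and 124 and 134 TPM in EpiLCs (4.53-fold higher in EpiLCs). PRDM14, TEAD4 and DPPA4 were thus high on the human side, and UTF1, ZFP57 and RIF1 on the mouse side.

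Factors of the naïve state summed to a lower level in both groups than in naïve cells, and more of them stood higher in EpiLCs than in primed H9. Of the 16 naïve-state factors tested, 4 were higher in primed H9, 9 in EpiLCs and 3 were not called, and the median log2 difference was −2.15. Their summed level was 137 and 153 TPM in primed H9 and 529 and 542 TPM in EpiLCs, against 3266 and 3293 TPM in naïve H9 and 3926 and 3871 TPM in naïve mESCs. FGF4, the FGF ligand that pluripotent mouse cells secrete, made up most of the EpiLC sum and stood at 0.97 and 1.93 TPM in primed H9 and 322 and 328 TPM in EpiLCs (210.1-fold higher in EpiLCs, log2 difference −7.71, SE 0.12, adjusted p = 1.46e-16). For KLF2, a Krüppel-like factor of the naïve mouse network, the values were 0.435 and 0.257 TPM in primed H9 and 44.7 and 45.8 TPM in EpiLCs (158-fold higher in EpiLCs). NR0B1, a nuclear receptor of the same network, had 0.308 and 0.778 TPM in primed H9 and 15.8 and 16.4 TPM in EpiLCs (26.4-fold higher in EpiLCs). MORC1, a germline silencing factor, had no count in primed H9 and 18.3 and 18.8 TPM in EpiLCs (at least 113-fold higher in EpiLCs). STAT3 and SOCS3 of the LIF pathway lay on the other side. Levels of STAT3, its transcription factor, were 59.3 and 61.4 TPM in primed H9 and 9.697 and 9.75 TPM in EpiLCs (5.71-fold higher in primed H9). SOCS3, its feedback inhibitor, stood at 39.1 and 46.7 TPM in primed H9 and 3.95 and 7.59 TPM in EpiLCs (6.27-fold higher in primed H9).

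Genes of the formative and primed epiblast were called in both directions, and their best-known markers were divided. The formative and primed epiblast list held 20 tested genes, of which 10 were called towards primed H9, 6 towards EpiLCs and 4 in neither direction (median log2 difference 0.99). FGF5, the classical marker of the mouse post-implantation epiblast (chromosome 4, 80266639 to 80336680 in GRCh38, chromosome 5, 98402043 to 98424889 in GRCm39), had 373 and 765 counts in the EpiLC libraries (77.4 and 71.4 TPM) and none in either primed H9 library. Set against a floor of 3 counts in each primed H9 library, it was at least 720.1-fold higher in EpiLCs (adjusted p = 4.32e-15). It was also at or under 0.0628 TPM in the mean of every other human group. OTX2, the homeobox factor that drives the exit from the naïve state, stood at 56.6 and 51.6 TPM in primed H9 and 107 and 98.8 TPM in EpiLCs and was just past the threshold towards EpiLCs (log2 difference −1.05, SE 0.07, adjusted p = 1.69e-09), which it missed on the plain TPM scale (−0.93), with limma (−0.91), in the fit of all 18 libraries (−0.91) or without primed H9 replicate 2 (−0.96). POU3F1, a POU factor of the formative and neural epiblast, stood at 113 and 132 TPM in primed H9 and 365 and 381 TPM in EpiLCs (3.28-fold higher in EpiLCs, log2 difference −1.71, SE 0.07, adjusted p = 2.92e-12). For ETV5, an ETS factor downstream of FGF signalling, the values were 49.6 and 48.04 TPM in primed H9 and 229 and 242 TPM in EpiLCs (5.24-fold higher in EpiLCs). FOXD3, a forkhead repressor, had 25.8 and 36.9 TPM in primed H9 and 80.8 and 88.01 TPM in EpiLCs (2.81-fold higher in EpiLCs).

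PTPRZ1, SFRP2, CDH2, THY1 and ZIC2 were among the 10 genes of the same list called towards primed H9. PTPRZ1, a receptor tyrosine phosphatase (chromosome 7, 121873089 to 122062036 in GRCh38), stood at 130.3 and 132 TPM in primed H9 and 0.109 and 0.164 TPM in EpiLCs (809-fold higher in primed H9, log2 difference 9.66, SE 0.12, adjusted p = 3.16e-17). SFRP2, a secreted WNT antagonist, stood at 1496 and 1614 TPM in primed H9 and 41.2 and 38.7 TPM in EpiLCs (36.1-fold higher in primed H9, log2 difference 5.18, SE 0.07, adjusted p = 5.72e-17). Levels of CDH2, the neural cadherin, were 27.3 and 28.7 TPM in primed H9 and 1.35 and 1.33 TPM in EpiLCs (19.3-fold higher in primed H9). THY1, a surface antigen used to sort primed human ESCs, stood at 242 and 249 TPM in primed H9 and 24.3 and 29.5 TPM in EpiLCs (8.21-fold higher in primed H9). ZIC2, a zinc-finger factor of the primed enhancer network, stood at 364 and 407 TPM in primed H9 and 137 and 148 TPM in EpiLCs (log2 difference 1.32, SE 0.07, adjusted p = 6.55e-11). FGF5 and POU3F1 were thus at the higher level in EpiLCs, and ZIC2, THY1, SFRP2 and PTPRZ1 in primed H9, with OTX2 and ZIC2 well above 10 TPM in both.

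**Figure D3:**
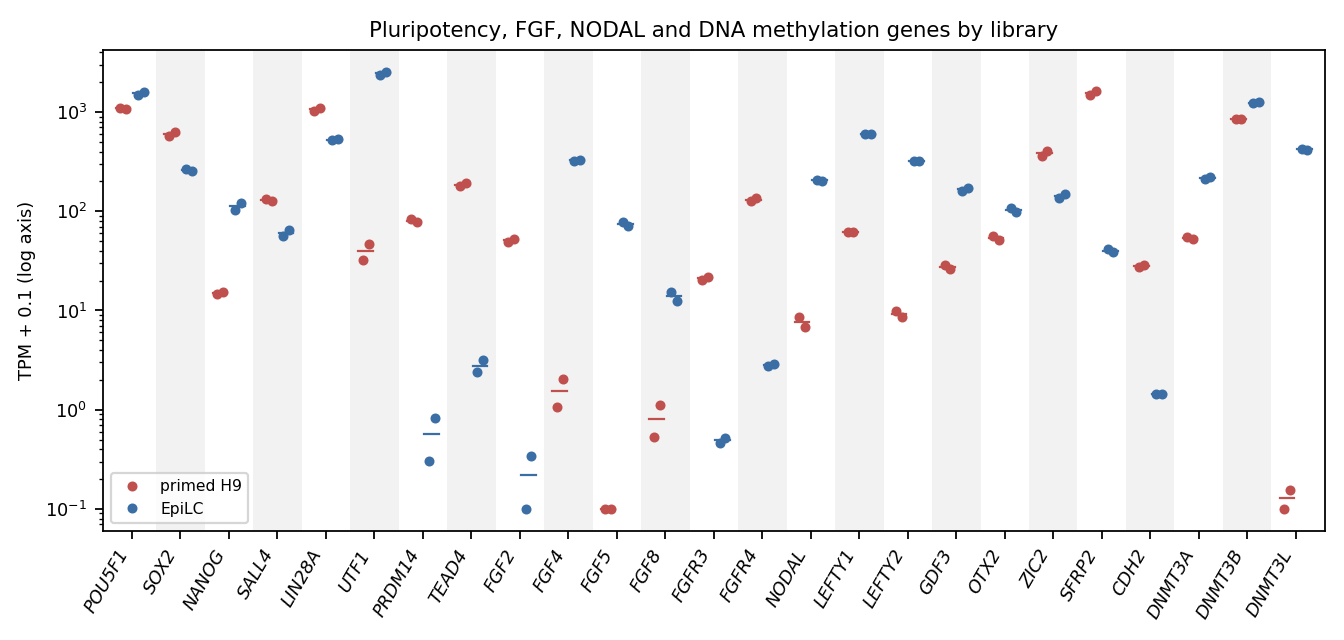
TPM of named genes in each primed H9 (red) and EpiLC (blue) library on a log axis, with a small constant added to draw zeros, each point a library and each bar the mean of 2 libraries. POU5F1 lies at a like height in primed H9 and EpiLCs, FGF5 and DNMT3L are at or near 0 in primed H9, and ZIC2 and SFRP2 lie higher in primed H9 than in EpiLCs.

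NODAL signalling genes stood mostly higher in EpiLCs. NODAL is a TGFβ ligand that keeps the epiblast pluripotent and later patterns the primitive streak, and LEFTY proteins are its secreted inhibitors and targets. Among 20 tested NODAL pathway genes, 3 were higher in primed H9, 12 were higher in EpiLCs and 5 were not called, with a median log2 difference of −1.47. NODAL itself (chromosome 10 in human, 10 in mouse) stood at 8.53 and 6.7002 TPM in primed H9 and 206 and 203 TPM in EpiLCs (30.8-fold higher in EpiLCs, log2 difference −4.94, SE 0.10, adjusted p = 1.74e-15), with 33.5% of the human exon bases shared with another gene. LEFTY2 stood at 9.8001 and 8.47 TPM in primed H9 and 321 and 319.9 TPM in EpiLCs (39.3-fold higher in EpiLCs, log2 difference −5.296, SE 0.09, adjusted p = 2.34e-16). The proprotein convertases that mature NODAL went in opposite directions. FURIN stood at 64.97 and 69.7 TPM in primed H9 and 8.88 and 11.9 TPM in EpiLCs (5.78-fold higher in primed H9), and PCSK6 stood at 0.706 and 1.005 TPM in primed H9 and 10.8 and 13.1 TPM in EpiLCs (14.6-fold higher in EpiLCs).

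FGF pathway genes were called in both directions. Of the 21 FGF pathway genes tested, 8 were higher in primed H9, 6 in EpiLCs and 7 were not called, and the median log2 difference was −0.12. Among ligands, FGF2, the FGF that human ESC medium usually supplies, stood at 49.5 and 52.5 TPM in primed H9 and 0 and 0.241 TPM in EpiLCs (278-fold higher in primed H9), and 0 and 7 counts lay behind the EpiLC values. FGF4 and FGF5 (above) and FGF8, a ligand of the gastrulating embryo, were higher in EpiLCs, with FGF8 at 0.425 and 1.004 TPM in primed H9 and 15.4 and 12.5 TPM in EpiLCs (16.9-fold higher in EpiLCs, log2 difference −4.08, SE 0.33, adjusted p = 1.41e-08). Among receptors, FGFR4 stood at 126 and 136 TPM in primed H9 and 2.64 and 2.77 TPM in EpiLCs (44.2-fold higher in primed H9, log2 difference 5.47, SE 0.11, adjusted p = 1.72e-15). Its relative FGFR3 stood at 20.3 and 21.8 TPM in primed H9 and 0.363 and 0.424 TPM in EpiLCs (47.7-fold higher in primed H9). Among targets, ETV5 was higher in EpiLCs, and EGR1, an immediate early target of ERK, stood at 100.2 and 119 TPM in primed H9 and 9.84 and 16.3 TPM in EpiLCs (7.25-fold higher in primed H9). Of these ligand transcripts, FGF4, FGF5 and FGF8 were thus higher in EpiLCs and FGF2 in primed H9, and both receptors named were higher in primed H9.

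WNT genes were called in both directions, with secreted antagonists on the human side. Among 32 tested WNT pathway genes, 14 were higher in primed H9, 8 were higher in EpiLCs and 10 were not called, with a median log2 difference of 0.51. SFRP1 and SFRP2, which bind WNT ligands outside the cell, reached 908 and 930.1 TPM and 1496 and 1614 TPM in primed H9. SFRP1 stood at 31.3 and 29.5 TPM in EpiLCs (28.02-fold higher in primed H9, log2 difference 4.81, SE 0.06, adjusted p = 4.28e-17). For FZD5, a WNT receptor, the values were 66.2 and 73.1 TPM in primed H9 and 11.7 and 10.6 TPM in EpiLCs (5.84-fold higher in primed H9). TCF7L2, a nuclear partner of β-catenin, had 40.4 and 39.4 TPM in primed H9 and 2.45 and 2.31 TPM in EpiLCs (15.5-fold higher in primed H9). The ligands WNT3 and WNT8A were higher in EpiLCs. Levels of WNT3, which starts the primitive streak in the mouse embryo, were 2.16 and 2.55 TPM in primed H9 and 13.3 and 12.6 TPM in EpiLCs (5.75-fold higher in EpiLCs). WNT8A, expressed in the early streak, had 0 and 2 counts in primed H9 and 22.9 and 22.1 TPM in EpiLCs (289-fold higher in EpiLCs, 95% counting interval 80.01 to 2387). TCF7, a further nuclear partner of β-catenin, stood at 5.72 and 4.72 TPM in primed H9 and 119 and 135 TPM in EpiLCs (27.6-fold higher in EpiLCs). For FZD10, a receptor, the values were 1.59 and 1.703 TPM in primed H9 and 13.9 and 12.1 TPM in EpiLCs (8.27-fold higher in EpiLCs). AXIN2, the common readout of the pathway, was at 11.1 TPM in primed H9 and 3.54 TPM in EpiLCs on average and was called towards primed H9 (log2 difference 1.43).

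ID1 and ID3, targets of BMP signalling, which pushes epiblast cells towards mesoderm, amnion and germ cells, were higher in primed H9. Of the 19 BMP pathway genes tested, 10 were higher in primed H9, 4 in EpiLCs and 5 were not called, and the median log2 difference was 1.33. Both encode inhibitors of basic helix-loop-helix factors and are common readouts of the pathway. ID1 stood at 86.6 and 88.9 TPM in primed H9 and 3.13 and 1.21 TPM in EpiLCs (44.2-fold higher in primed H9, log2 difference 5.47, SE 0.23, adjusted p = 4.57e-12). ID3 stood at 529.7 and 559.7 TPM in primed H9 and 5.51 and 2.87 TPM in EpiLCs (135-fold higher in primed H9, log2 difference 7.08, SE 0.13, adjusted p = 6.65e-16). The EpiLC libraries differed from each other for both genes, with replicate 1 the higher, and both were far below primed H9. BMP7, a ligand, had 14.9 and 13.7 TPM in primed H9 and 3.099 and 3.602 TPM in EpiLCs (3.77-fold higher in primed H9). Levels of BAMBI, a decoy receptor, were 44.3 and 46.7 TPM in primed H9 and 9.31 and 9.25 TPM in EpiLCs (4.54-fold higher in primed H9). On the EpiLC side were a receptor and an inhibitor. BMPR1A, a type I receptor, stood at 20.2 and 18.9 TPM in primed H9 and 64.3 and 60.3 TPM in EpiLCs (3.47-fold higher in EpiLCs). For SMAD6, an inhibitory SMAD, the values were 3.01 and 4.15 TPM in primed H9 and 16.5 and 15.7 TPM in EpiLCs (4.603-fold higher in EpiLCs). The calls for BAMBI and SMAD6 were lost without division by gene length. BMP4, the main ligand of the early embryo, was not called, at 7.34 and 5.79 TPM in primed H9 and 6.696 and 3.84 TPM in EpiLCs.

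The de novo DNA methylation machinery differed most in its catalytically inactive cofactor. DNMT3L, which stimulates DNMT3A and DNMT3B and has no catalytic activity of its own, had 2456 and 5287 counts in EpiLCs (427 and 413 TPM) and 0 and 1 counts in primed H9 (10082-fold higher in EpiLCs, 95% counting interval 1809.6 to 398237). DNMT3A stood at 54.4 and 52.97 TPM in primed H9 and 209.98 and 221 TPM in EpiLCs (4.35-fold higher in EpiLCs, log2 difference −2.12, SE 0.06, adjusted p = 3.77e-14), whereas DNMT3B was high in both, at 855 and 858 TPM in primed H9 and 1226 and 1266 TPM in EpiLCs, and was not called (log2 difference −0.65, SE 0.05, adjusted p = 5.45e-09). UHRF1, which guides maintenance methylation, had 32.7 and 32.6 TPM in primed H9 and 249.7 and 275 TPM in EpiLCs (8.75-fold higher in EpiLCs). Levels of MBD3, a subunit of the NuRD complex, were 32.6 and 35.9 TPM in primed H9 and 412 and 425 TPM in EpiLCs (13.2-fold higher in EpiLCs). Glycosylases that repair deaminated or oxidised methylcytosine were higher in primed H9. MBD4, a glycosylase that binds methylated DNA, stood at 35.5 and 38.6 TPM in primed H9 and 8.55 and 9.68 TPM in EpiLCs (3.699-fold higher in primed H9). For TDG, the thymine DNA glycosylase, the values were 41.7 and 40.4 TPM in primed H9 and 12.9 and 13.8 TPM in EpiLCs (2.79-fold higher in primed H9). MBD1, a reader of methylated CpG, had 38.3 and 39.7 TPM in primed H9 and 11.1 and 9.197 TPM in EpiLCs (3.64-fold higher in primed H9). TET3, an oxidase of methylcytosine, had a smaller difference, with 10.6 and 10.5 TPM in primed H9 and 2.92 and 4.503 TPM in EpiLCs (log2 difference 1.301, not called without division by gene length). Among 16 tested DNA methylation and TET genes, 4 were higher in primed H9, 5 were higher in EpiLCs and 7 were not called, with a median log2 difference of −0.045.

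Polycomb repressive complex 2, which places methyl groups on lysine 27 of histone H3, had its core subunits higher in EpiLCs and some of its accessory subunits higher in primed H9. Of the 12 PRC2 genes tested, 3 were higher in primed H9, 7 in EpiLCs and 2 were not called, and the median log2 difference was −1.37. Levels of EZH2, the methyltransferase, were 22.1 and 20.996 TPM in primed H9 and 115 and 109 TPM in EpiLCs (5.65-fold higher in EpiLCs, log2 difference −2.498, SE 0.06, adjusted p = 2e-14). EED, a scaffold protein of the core, stood at 18.8 and 18.6 TPM in primed H9 and 114 and 107 TPM in EpiLCs (6.38-fold higher in EpiLCs). For SUZ12, a further scaffold protein, the values were 30.03 and 30.3 TPM in primed H9 and 117 and 124 TPM in EpiLCs (4.33-fold higher in EpiLCs). EPOP, an accessory subunit of pluripotent cells, was also higher in EpiLCs, with 8.96 and 11.3 TPM in primed H9 and 255 and 262 TPM in EpiLCs (26.7-fold higher in EpiLCs). Other accessory subunits lay on the human side. JARID2, which recruits the complex, had 308 and 305 TPM in primed H9 and 94.3 and 120.04 TPM in EpiLCs (2.62-fold higher in primed H9). Levels of AEBP2, a zinc-finger cofactor, were 29.4 and 34.97 TPM in primed H9 and 14.01 and 15.5 TPM in EpiLCs (2.02-fold higher in primed H9). PHF1, a reader of histone marks, stood at 44.4 and 48.3 TPM in primed H9 and 0.893 and 0.737 TPM in EpiLCs (54.1-fold higher in primed H9). Without division by gene length, the JARID2 call was lost and AEBP2 turned to −0.37. The AEBP2 call was also lost without EpiLC replicate 1 (0.95) or without primed H9 replicate 2 (0.88). The exon bases of mouse PHF1 were shared with other genes to 39.3%.

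**Figure D4:**
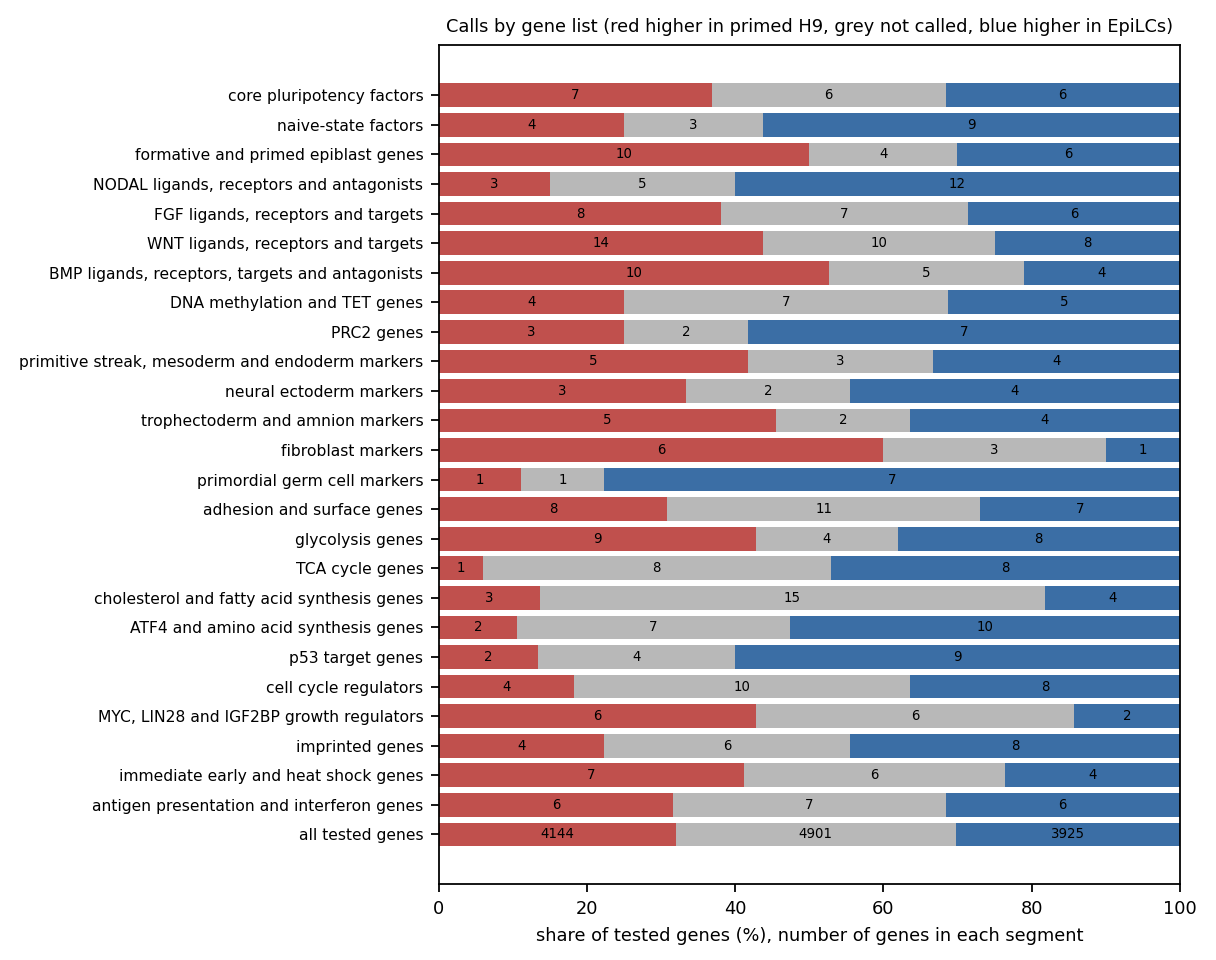
Share of the tested genes of each gene list (rows) that were called higher in primed H9 (red), not called (grey) or called higher in EpiLCs (blue), in percent, with the number of genes printed in each segment and all tested genes in the lowest row. NODAL genes were called mostly towards EpiLCs (12 of 20), BMP genes mostly towards primed H9 (10 of 19), and germ cell markers mostly towards EpiLCs (7 of 9).

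Most lineage markers of the streak, mesoderm and endoderm were low in both groups. Of 22 matched markers of primitive streak, mesoderm and endoderm, 15 stayed under 1 TPM in primed H9 and 14 in EpiLCs. Among 12 tested markers of these lineages, 5 were higher in primed H9, 4 were higher in EpiLCs and 3 were not called, with a median log2 difference of 0.092. KDR, the VEGF receptor of endothelial and haematopoietic precursors, was higher in primed H9, at 76.4 and 76.5 TPM against 1 and 1 counts in EpiLCs (2142-fold higher in primed H9, 95% counting interval 593 to 17691). SNAI1, a repressor of epithelial genes, stood at 29.3 and 34.98 TPM in primed H9 and 5.12 and 3.601 TPM in EpiLCs (7.37-fold higher in primed H9). Of the 9 neural ectoderm markers tested, 3 were higher in primed H9, 4 in EpiLCs and 2 were not called, and the median log2 difference was 0.49. For NES, an intermediate filament of neural progenitors, the values were 296 and 308 TPM in primed H9 and 26.3 and 26.4 TPM in EpiLCs (10.6-fold higher in primed H9, log2 difference 3.401, SE 0.06, adjusted p = 9.16e-16). SOX1, the earliest neural plate SOX factor, had 0 and 1 counts in primed H9 and 9.13 and 11.8 TPM in EpiLCs (617-fold higher in EpiLCs, 95% counting interval 111 to 24382). DLL1, a NOTCH ligand, stood at 3.46 and 3.85 TPM in primed H9 and 16.5 and 19.4 TPM in EpiLCs (5.32-fold higher in EpiLCs).

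Among 11 tested markers of trophectoderm and amnion, 5 were higher in primed H9, 4 were higher in EpiLCs and 2 were not called, with a median log2 difference of 0.38. Keratins, filaments of simple epithelia, were higher in primed H9. KRT8 stood at 234 and 244 TPM in primed H9 and 25.2 and 22.2 TPM in EpiLCs (9.48-fold higher in primed H9). KRT19 stood at 287 and 299.7 TPM in primed H9 and 7.27 and 7.93 TPM in EpiLCs (34.97-fold higher in primed H9, log2 difference 5.13, SE 0.10, adjusted p = 1.12e-15). KRT7 was lower, with 11.4 and 11.3 TPM in primed H9 and 2.503 and 3.08 TPM in EpiLCs, and its call was lost without division by gene length. TEAD3, a HIPPO pathway factor, had 78.3 and 84.2 TPM in primed H9 and 4.64 and 4.56 TPM in EpiLCs (16.4-fold higher in primed H9). Levels of IGFBP3, which binds insulin-like growth factors, were 2.22 and 3.104 TPM in primed H9 and 47.1 and 49.3 TPM in EpiLCs (18.5-fold higher in EpiLCs). Of the 10 fibroblast markers tested, 6 were higher in primed H9, 1 in EpiLCs and 3 were not called, and the median log2 difference was 2.704. The chains of type I collagen were higher in primed H9. COL1A1 stood at 66.2 and 66.7 TPM in primed H9 and 0.712 and 0.783 TPM in EpiLCs (80.1-fold higher in primed H9). COL1A2 stood at 52.6 and 54.96 TPM in primed H9 and 0.877 and 0.601 TPM in EpiLCs (71.8-fold higher in primed H9). PDGFRB, a receptor of mesenchymal cells, stood at 20.04 and 19.2 TPM in primed H9 and 3.32 and 3.49 TPM in EpiLCs (5.22-fold higher in primed H9). For TWIST2, a mesenchymal factor, the values were 9.195 and 12.4 TPM in primed H9 and 0.164 and 0.147 TPM in EpiLCs (70.8-fold higher in primed H9, 95% counting interval 24.2 to 343). COL3A1, LUM and PRRX1, which mark fibroblasts, had too few counts to be tested. The 13 matched fibroblast markers summed to 307 and 319.5 TPM in primed H9 and 110.1 and 108 TPM in EpiLCs. In bulk samples, a larger number of cells of a type and more RNA per cell cannot be told apart.

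Most of the listed germ cell genes stood higher in EpiLCs. Among 9 tested primordial germ cell markers, 1 was higher in primed H9, 7 were higher in EpiLCs and 1 was not called, with a median log2 difference of −6.68. MAEL, which protects the germline from transposons, stood at 0.0975 and 0.132 TPM in primed H9 and 183 and 163 TPM in EpiLCs (1407-fold higher in EpiLCs, log2 difference −10.46, SE 0.17, adjusted p = 3.06e-16). DDX4, an RNA helicase of germ granules, had 0 and 0.108 TPM in primed H9 and 35.5 and 42.5 TPM in EpiLCs (490.4-fold higher in EpiLCs). Levels of STK31, a Tudor-domain kinase of germ cells, were 0 and 0.0842 TPM in primed H9 and 19.7 and 19.8 TPM in EpiLCs (318-fold higher in EpiLCs). SYCP3, a protein of the synaptonemal complex, stood at 0.0801 and 0.0811 TPM in primed H9 and 24.6 and 26.8 TPM in EpiLCs (318-fold higher in EpiLCs, 95% counting interval 124 to 1167). The exon bases of mouse SYCP3 were shared with other genes to 52.2%. KIT, the receptor of stem cell factor, was higher in primed H9, at 11.9 and 11.8 TPM in primed H9 and 4.08 and 3.62 TPM in EpiLCs (2.89-fold higher in primed H9). The defining early factor PRDM1 is given for EpiLCs only, at 16.3 and 13.3 TPM, so its direction is not described here. SOX17 and NANOS3 had too few counts to be tested. PRDM14, counted above with the pluripotency factors, was higher in primed H9 (means 80.3 TPM in primed H9 and 0.465 TPM in EpiLCs).

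Adhesion and surface genes were called in both directions, and so were the cadherins CDH1 and CDH2. Of the 26 adhesion and surface genes tested, 8 were higher in primed H9, 7 in EpiLCs and 11 were not called, and the median log2 difference was −0.018. CDH1, the epithelial cadherin, stood at 167 and 165 TPM in primed H9 and 693 and 745 TPM in EpiLCs (4.705-fold higher in EpiLCs, log2 difference −2.23, SE 0.06, adjusted p = 2.85e-14), while CDH2 (above) was 19.3-fold higher in primed H9. For PODXL, the sialomucin that carries surface antigens of human ESCs, the values were 899 and 911 TPM in primed H9 and 85.97 and 98.7 TPM in EpiLCs (8.98-fold higher in primed H9, log2 difference 3.17, SE 0.07, adjusted p = 3.55e-15). ALPL, the alkaline phosphatase used as a stain for pluripotent colonies, had 322 and 336 TPM in primed H9 and 41.1 and 41.6 TPM in EpiLCs (7.33-fold higher in primed H9). Matrix genes were split. Levels of LAMA1, a laminin α chain, were 41.8 and 41.9 TPM in primed H9 and 2.47 and 3.26 TPM in EpiLCs (12.9-fold higher in primed H9). LAMB1, a laminin β chain, stood at 24.9 and 25.5 TPM in primed H9 and 121 and 125 TPM in EpiLCs (5.299-fold higher in EpiLCs). For FN1, fibronectin, the values were 33.8 and 32.7 TPM in primed H9 and 151 and 167 TPM in EpiLCs (5.19-fold higher in EpiLCs). CLDN4, a claudin of tight junctions, stood at 42.1 and 39.2 TPM in primed H9 and 290.1 and 302 TPM in EpiLCs (7.97-fold higher in EpiLCs).

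In central metabolism, glycolysis genes were called in both directions, and genes of the tricarboxylic acid (TCA) cycle were mostly higher in EpiLCs or not called. Among 21 tested glycolysis genes, 9 were higher in primed H9, 8 were higher in EpiLCs and 4 were not called, with a median log2 difference of −0.102. HK1, a hexokinase, had 375 and 356 TPM in primed H9 and 31.7 and 31.9 TPM in EpiLCs (10.6-fold higher in primed H9). Levels of PFKP, a phosphofructokinase isoform, were 114 and 115 TPM in primed H9 and 18.05 and 17.1 TPM in EpiLCs (6.05-fold higher in primed H9). ENO2, the neuronal enolase, stood at 85.2 and 88.03 TPM in primed H9 and 0.993 and 1.09 TPM in EpiLCs (74.9-fold higher in primed H9). LDHA, PDK1 and SLC16A3, which act on the fate of pyruvate and lactate, were higher in EpiLCs. For LDHA, which turns pyruvate into lactate, the values were 319 and 313 TPM in primed H9 and 1871 and 1848 TPM in EpiLCs (6.37-fold higher in EpiLCs). PDK1, which holds pyruvate back from the mitochondria, had 10.2 and 11.8 TPM in primed H9 and 74.7 and 75.005 TPM in EpiLCs (7.26-fold higher in EpiLCs). Levels of SLC16A3, the lactate exporter, were 3.39 and 3.61 TPM in primed H9 and 387 and 383 TPM in EpiLCs (118-fold higher in EpiLCs, log2 difference −6.88, SE 0.08, adjusted p = 1.12e-17). GAPDH and ALDOA, enzymes of the same pathway, went in opposite directions. GAPDH stood at 3959.6 and 3945 TPM in primed H9 and 199.9 and 223 TPM in EpiLCs, and ALDOA stood at 91.4 and 94.5 TPM in primed H9 and 3216 and 3205 TPM in EpiLCs. Both differences had a like size at the naïve stage (stage differences 0.56 and −0.88), and 54.2% of the exon bases of human ALDOA were shared with another gene.

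Of the 17 TCA cycle genes tested, 1 was higher in primed H9, 8 in EpiLCs and 8 were not called, and the median log2 difference was −0.83. Succinate dehydrogenase is represented by a pair of its subunits. SDHA stood at 6.24 and 6.03 TPM in primed H9 and 414 and 409.97 TPM in EpiLCs (73.3-fold higher in EpiLCs). Its mean lay between 3.52 and 6.14 TPM in all human groups and between 317 and 460 TPM in all mouse groups. SDHD stood at 40.9 and 40.3 TPM in primed H9 and 445 and 431 TPM in EpiLCs (11.7-fold higher in EpiLCs). IDH3A, an isocitrate dehydrogenase subunit, stood at 11.96 and 11.4 TPM in primed H9 and 149 and 151 TPM in EpiLCs (14.04-fold higher in EpiLCs). SUCLG2, a subunit of succinyl-CoA ligase, stood at 87.4 and 92.1 TPM in primed H9 and 29.2 and 32.4 TPM in EpiLCs, a call lost without division by gene length. Among 22 tested genes of cholesterol and fatty acid synthesis, 3 were higher in primed H9, 4 were higher in EpiLCs and 15 were not called, with a median log2 difference of −0.34. For INSIG1, a feedback regulator of sterol synthesis, the values were 93.9 and 100.04 TPM in primed H9 and 320.3 and 325 TPM in EpiLCs (3.596-fold higher in EpiLCs, log2 difference −1.85, SE 0.06, adjusted p = 2.39e-13). MVK, mevalonate kinase, had 9.22 and 9.74 TPM in primed H9 and 115 and 117 TPM in EpiLCs (13.2-fold higher in EpiLCs). MVD, the next decarboxylase of the pathway, stood at 119 and 126 TPM in primed H9 and 369.6 and 375 TPM in EpiLCs (a call lost without division by gene length). IDI1, FDFT1 and ACACA, an isomerase and a synthase of the sterol pathway and the carboxylase that starts fatty acid synthesis, were higher in primed H9 (7.54-fold, 3.32-fold and 4.74-fold). Of this list, 15 of 22 were not called, the largest such share among the 25 lists. Of these 15, 14 had an adjusted p below 0.05 in edgeR's test and missed the fold threshold.

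More genes of the ATF4 and p53 lists were called towards EpiLCs than towards primed H9. Among 19 tested genes of ATF4 and amino acid synthesis, 2 were higher in primed H9, 10 were higher in EpiLCs and 7 were not called, with a median log2 difference of −1.09. TRIB3 and DDIT4 are ATF4 targets that damp AKT and mTOR signalling. TRIB3 stood at 26.2 and 27.3 TPM in primed H9 and 428 and 408 TPM in EpiLCs (16.9-fold higher in EpiLCs). DDIT4 stood at 128 and 124 TPM in primed H9 and 1750.5 and 1749 TPM in EpiLCs (15.1-fold higher in EpiLCs). Levels of DDIT3, the stress factor CHOP, were 2.35 and 3.17 TPM in primed H9 and 44.2 and 45.9 TPM in EpiLCs (16.6-fold higher in EpiLCs). ASNS, asparagine synthetase, stood at 2.38 and 2.11 TPM in primed H9 and 829 and 824 TPM in EpiLCs (409-fold higher in EpiLCs), with 49.3% of the human exon bases shared. PYCR1, of proline synthesis, and SLC7A11, the cystine importer, were called towards primed H9 (log2 differences 1.47 and 1.21), both lost without division by gene length. Of the 15 p53 target genes tested, 2 were higher in primed H9, 9 in EpiLCs and 4 were not called, and the median log2 difference was −1.17. MDM2, the ligase that degrades p53, stood at 15.4 and 16.1 TPM in primed H9 and 149 and 139 TPM in EpiLCs (9.84-fold higher in EpiLCs, log2 difference −3.299, SE 0.07, adjusted p = 1.51e-15). For PHLDA3, an AKT inhibitor, the values were 40.9 and 48.97 TPM in primed H9 and 265 and 259 TPM in EpiLCs (6.201-fold higher in EpiLCs). TIGAR, a fructose bisphosphatase, had 2.502 and 2.29 TPM in primed H9 and 59.2 and 56.6 TPM in EpiLCs (26.6-fold higher in EpiLCs). Levels of ZMAT3, an RNA-binding target, were 5.79 and 6.002 TPM in primed H9 and 37.4 and 44.6 TPM in EpiLCs (7.597-fold higher in EpiLCs). A pair of p53 targets lay on the human side. RRM2B, the p53-induced ribonucleotide reductase subunit, stood at 78.6 and 77.5 TPM in primed H9 and 4.15 and 5.06 TPM in EpiLCs (15.1-fold higher in primed H9). AEN, an exonuclease, had a log2 difference of 1.09 that was not called without division by gene length or among genes with lengths within 1.5 times of each other (0.89).

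Of the 22 cell cycle regulators tested, 4 were higher in primed H9, 8 in EpiLCs and 10 were not called, and the median log2 difference was −0.47. For CDKN2A, the INK4A/ARF inhibitor locus, the values were 0.158 and 0.373 TPM in primed H9 and 85.9 and 95.4 TPM in EpiLCs (306-fold higher in EpiLCs). CDK4, the G1 kinase that INK4A inhibits, had 181 and 174 TPM in primed H9 and 852 and 834 TPM in EpiLCs (5.15-fold higher in EpiLCs). The G1/S cyclins were also higher in EpiLCs. CCNE1 stood at 118 and 125 TPM in primed H9 and 415 and 401 TPM in EpiLCs (3.63-fold higher in EpiLCs). CCNE2 stood at 1.74 and 2.68 TPM in primed H9 and 14.3 and 16.03 TPM in EpiLCs (6.93-fold higher in EpiLCs). A D-type cyclin and a repressor of E2F targets were higher in primed H9. Levels of CCND2, cyclin D2, were 51.3 and 47.2 TPM in primed H9 and 14.1 and 18.1 TPM in EpiLCs (2.73-fold higher in primed H9). RBL2, the retinoblastoma-like repressor, stood at 10.1 and 10.8 TPM in primed H9 and 1.37 and 1.33 TPM in EpiLCs (7.17-fold higher in primed H9). CCNB1, the mitotic cyclin, had 537 and 548 TPM in primed H9 and 139 and 139 TPM in EpiLCs, a call lost without division by gene length. Among 14 tested genes of the MYC, LIN28 and IGF2BP growth group, 6 were higher in primed H9, 2 were higher in EpiLCs and 6 were not called, with a median log2 difference of 0.71. HMGA1 and HMGA2 are architectural chromatin proteins. HMGA1 stood at 6454 and 6776 TPM in primed H9 and 448 and 474 TPM in EpiLCs (13.2-fold higher in primed H9, log2 difference 3.73, SE 0.06, adjusted p = 1.34e-16). HMGA2 stood at 77.2 and 78.9 TPM in primed H9 and 4.06 and 4.103 TPM in EpiLCs (17.6-fold higher in primed H9). For LIN28B, which blocks let-7 maturation, the values were 96.3 and 100.5 TPM in primed H9 and 22.5 and 24.8 TPM in EpiLCs (3.805-fold higher in primed H9). Its paralogue LIN28A stood at 1035 and 1101 TPM in primed H9 and 523 and 533 TPM in EpiLCs, under the fold threshold (log2 difference 0.901, SE 0.05, adjusted p = 2.19e-10), and was called on the plain TPM scale. MXD4, a repressor that competes with MYC for MAX, had 44.4 and 47.9 TPM in primed H9 and 3.92 and 3.47 TPM in EpiLCs (11.8-fold higher in primed H9). Levels of MAX, their shared partner, were 14.5 and 16.4 TPM in primed H9 and 91.3 and 96.7 TPM in EpiLCs (6.54-fold higher in EpiLCs). MXD3, a relative of MXD4, just passed the threshold towards EpiLCs (log2 difference −1.04) and did not pass it on the plain TPM scale (−0.92), with limma (−0.87), in the fit of all 18 libraries (−0.902), with no filter (−0.99) or without primed H9 replicate 1 (−0.91).

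Imprinted genes, which are transcribed from 1 parental allele, were called in both directions. Of the 18 imprinted genes tested, 4 were higher in primed H9, 8 in EpiLCs and 6 were not called, and the median log2 difference was −0.68. PEG3, a paternally expressed zinc-finger gene, had no count in primed H9 and 93.4 and 96.4 TPM in EpiLCs (at least 1506-fold higher in EpiLCs), with 50.9% of its human exon bases shared with another gene. DLK1, a paternally expressed NOTCH-related ligand, stood at 0.526 and 0.829 TPM in primed H9 and 11.6 and 11.4 TPM in EpiLCs (16.6-fold higher in EpiLCs). For PHLDA2, a maternally expressed growth inhibitor, the values were 14.7 and 20.4 TPM in primed H9 and 88.9 and 78.9 TPM in EpiLCs (4.82-fold higher in EpiLCs). SLC38A4, an amino acid transporter, had 19.3 and 19.4 TPM in primed H9 and 172 and 169.8 TPM in EpiLCs (9.59-fold higher in EpiLCs). NDN and MAGEL2, neighbours in the Prader-Willi region, were higher in primed H9. NDN stood at 119 and 127 TPM in primed H9 and 30.5 and 25.4 TPM in EpiLCs (4.17-fold higher in primed H9). MAGEL2 stood at 10.9 and 12.5 TPM in primed H9 and 1.34 and 1.41 TPM in EpiLCs (7.84-fold higher in primed H9). PEG10 and NNAT were also called towards primed H9 (log2 differences 1.12 and 1.37), and the calls of NDN, PEG10 and NNAT were lost without division by gene length. That of PEG10 was also lost among genes with lengths within 1.5 times of each other (0.93).

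Among 17 tested immediate early and heat shock genes, 7 were higher in primed H9, 4 were higher in EpiLCs and 6 were not called, with a median log2 difference of 0.505. Levels of FOS, which joins JUN in the AP-1 factor, were 31.9 and 33.6 TPM in primed H9 and 2.43 and 2.78 TPM in EpiLCs (11.3-fold higher in primed H9). HSPA1A and HSPA1B, inducible chaperones, are near-identical copies whose reads may be split between them. HSPA1A stood at 30.5 and 31.6 TPM in primed H9 and 0.525 and 0.393 TPM in EpiLCs, and HSPA1B stood at 36.2 and 38.3 TPM in primed H9 and 4.26 and 3.67 TPM in EpiLCs. DUSP1, a phosphatase of MAP kinases, stood at 19.2 and 18.9 TPM in primed H9 and 150.3 and 148 TPM in EpiLCs (8.54-fold higher in EpiLCs). For BTG2, an anti-proliferative target of p53, the values were 16.5 and 16.9 TPM in primed H9 and 72.1 and 65.03 TPM in EpiLCs (4.404-fold higher in EpiLCs). ATF3 and IER2, early stress genes, were called towards EpiLCs with smaller differences (log2 −1.08 and −1.497), and both calls were lost without division by gene length. That of ATF3 was also lost on the plain TPM scale (−0.96), with limma (−0.93) and in the fit of all 18 libraries (−0.94). Of the 19 genes of antigen presentation and the interferon response tested, 6 were higher in primed H9, 6 in EpiLCs and 7 were not called, and the median log2 difference was −0.25. ISG15, a ubiquitin-like interferon target, had 82.8 and 94.3 TPM in primed H9 and 3.69 and 1.33 TPM in EpiLCs (39.5-fold higher in primed H9). Its log2 difference of 5.302 was 5.93 without EpiLC replicate 1 and 4.48 without EpiLC replicate 2. Levels of IRF7, a factor of the type I interferon response, were 11.7 and 13.8 TPM in primed H9 and 0.412 and 0.185 TPM in EpiLCs (49.99-fold higher in primed H9, 95% counting interval 22.97 to 136). Subunits of the immunoproteasome were split. PSMB8 stood at 19.8 and 20.1 TPM in primed H9 and 8.29 and 5.66 TPM in EpiLCs (2.81-fold higher in primed H9). PSMB9 stood at 3.59 and 2.95 TPM in primed H9 and 10.1 and 10.97 TPM in EpiLCs (3.69-fold higher in EpiLCs). Other members were higher in EpiLCs. IRF1, an interferon-induced factor, stood at 1.63 and 1.38 TPM in primed H9 and 49.1 and 51.98 TPM in EpiLCs (38.1-fold higher in EpiLCs). For TAPBP, which loads peptides, the values were 14.6 and 14.4 TPM in primed H9 and 51.6 and 55.5 TPM in EpiLCs (4.06-fold higher in EpiLCs). BST2, which tethers virions, had 149 and 159 TPM in primed H9 and 444 and 462 TPM in EpiLCs (3.19-fold higher in EpiLCs).

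Over all tested genes, the largest differences were taken among genes with at least 20 TPM on the higher side and more than 3 counts in a library of the lower side. The 12 on the human side ran from COL4A6 to ACTG1 and included PTPRZ1, FGF2 and RPL24 (values above). Levels of COL4A6, a basement membrane collagen, were 23.8 and 24.9 TPM in primed H9 and 0.325 and 0 TPM in EpiLCs. COL6A1, a collagen chain, stood at 127 and 134 TPM in primed H9 and 0.237 and 0.426 TPM in EpiLCs. For OLFML3, a secreted matrix protein, the values were 74.1 and 77.3 TPM in primed H9 and 0.505 and 0.189 TPM in EpiLCs. PTPRD, TMEM132B and PODXL2, which encode membrane proteins, were also among them. PTPRD, a receptor phosphatase, had 20.4 and 20.3 TPM in primed H9 and 0.0455 and 0.0921 TPM in EpiLCs. Levels of TMEM132B, a membrane protein, were 27.2 and 25.3 TPM in primed H9 and 0.063 and 0.113 TPM in EpiLCs. PODXL2, a relative of PODXL, stood at 153 and 183 TPM in primed H9 and 0.632 and 0.447 TPM in EpiLCs. ADD2 and SEPTIN2, of the cytoskeleton, completed the set. For ADD2, an adducin, the values were 119 and 119 TPM in primed H9 and 0.41 and 0.345 TPM in EpiLCs. SEPTIN2, a filament-forming GTPase, had 275 and 276 TPM in primed H9 and 0.325 and 0.322 TPM in EpiLCs. In all 8 the EpiLC libraries lay below 1 TPM. Of these 12, ACTG1 and PODXL2 reached 10 TPM in the mean of a mouse group, and the other 10 did not.

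On the mouse side, the 12 were CDC42, PRPH, MAEL, PSMA2, TCEA3, NUPR1, IFI30, SARNP, MAOA, ACADL, PLCG2 and NUSAP1. Levels of PSMA2, a subunit of the proteasome core, were 0.366 and 0.148 TPM in primed H9 and 279 and 249.6 TPM in EpiLCs. SARNP, an mRNA export factor, stood at 0 and 0.123 TPM in primed H9 and 98.8 and 106 TPM in EpiLCs. For NUSAP1, a spindle protein, the values were 0 and 0.23 TPM in primed H9 and 137 and 129.7 TPM in EpiLCs. Such genes are used by dividing cells in general. TCEA3, a transcription elongation factor, had 0.0835 and 0.169 TPM in primed H9 and 195 and 194 TPM in EpiLCs. Levels of MAOA, a monoamine oxidase, were 0.142 and 0.143 TPM in primed H9 and 134 and 124 TPM in EpiLCs. PRPH, a neuronal filament, stood at 0 and 0.158 TPM in primed H9 and 167 and 189 TPM in EpiLCs. NUPR1, IFI30, ACADL and PLCG2 completed the mouse side. For NUPR1, a stress-induced chromatin protein, the values were 0 and 0.0752 TPM in primed H9 and 65.03 and 79.9 TPM in EpiLCs. IFI30, a lysosomal thiol reductase, had 0 and 0.177 TPM in primed H9 and 157 and 149.6 TPM in EpiLCs. Levels of ACADL, of fatty acid oxidation, were 0 and 0.1 TPM in primed H9 and 65.8 and 71.3 TPM in EpiLCs. PLCG2, a phospholipase of receptor signalling, stood at 0.318 and 0.294 TPM in primed H9 and 243 and 262 TPM in EpiLCs. MAEL, TCEA3 and MAOA reached 10 TPM in the mean of a human group, and the other 9 did not. The human exon bases of PRPH were shared with another gene to 71.5%.

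Genes with at least 10 TPM in one group and at most 3 counts in each library of the other numbered 110 towards primed H9 and 78 towards EpiLCs. Of the 110, 8 reached 10 TPM in another mouse group, and of the 78, 10 did so in another human group. By level, the first 6 on the human side were MT-CO3, MT-CO2, CNMD, RARRES2, RBM42 and GPR176. CNMD, chondromodulin, stood at 363 and 337 TPM in primed H9 with no count in EpiLCs (at least 571-fold higher in primed H9). For RARRES2, the adipokine chemerin, the values were 298 and 311 TPM in primed H9 and 0 and 0.0879 TPM in EpiLCs (5022-fold higher in primed H9, 95% counting interval 901 to 198352). GPR176, an orphan receptor, had 242 and 251 TPM in primed H9 and 0.133 and 0.12 TPM in EpiLCs (1989-fold higher in primed H9, 95% counting interval 681 to 9644). RBM42, an RNA-binding protein with 75.4% of its mouse exon bases shared, stood at 252 and 270.1 TPM in primed H9 and 0.237 and 0 TPM in EpiLCs. On the mouse side, DNMT3L (above) came first. Levels of RBMXL2, a testis-type splicing factor, were 0.143 and 0.144 TPM in primed H9 and 315 and 300.1 TPM in EpiLCs (2137-fold higher in EpiLCs, 95% counting interval 835 to 7844). PLA2G1B, a secreted phospholipase, stood at 0 and 0 TPM in primed H9 and 234 and 232 TPM in EpiLCs (at least 236-fold higher in EpiLCs). For MRPL53, a mitochondrial ribosomal protein, the values were 0 and 0 TPM in primed H9 and 195 and 179 TPM in EpiLCs (at least 208-fold higher in EpiLCs). An antigen and a hormone gene closed the list. FMR1NB, a cancer/testis antigen, had 0 and 0 TPM in primed H9 and 183 and 160.5 TPM in EpiLCs (at least 318-fold higher in EpiLCs). Levels of TRH, the thyrotropin-releasing hormone, were 0.193 and 0.195 TPM in primed H9 and 132 and 122 TPM in EpiLCs (654-fold higher in EpiLCs, 95% counting interval 255 to 2399.7). Of the mouse-side genes, DNMT3L and TRH reached 10 TPM in the mean of a human group, DNMT3L with 3253 TPM in naïve H9, and the other 4 did not.

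To ask which differences belonged to the primed stage, the difference between primed H9 and EpiLCs was compared with that between naïve H9 and naïve mESCs, the stage difference being the first log2 difference minus the second. Gene length and other properties that scale a gene's counts alike at both stages of a species drop out of it. Properties whose effect on the counts varies between groups do not. Of the 4144 genes higher in primed H9, 2780 (67.1%) were called the same way at the naïve stage and 331 the opposite way, and of the 3925 higher in EpiLCs, 2426 (61.8%) were called the same way and 357 the opposite way. Over all 12970 genes tested at the primed stage, called there or not, 6656 (51.3%) were called at the naïve stage in the same direction and 1351 in the opposite one. Of 13480 genes tested for the stage difference, 43% were called, 2685 towards H9 in the primed pair (19.9%) and 3113 towards EpiLCs (23.1%). The naïve H9 cells had been on mouse feeder cells, and their fibroblast markers summed to 335 and 326 TPM, close to primed H9 (307 and 319.5 TPM). The stage difference carries the naïve libraries' own culture differences as well, among them CHIR99021 in the mouse medium and XAV939 in the human medium.

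CDC42, ACTG1, SEPTIN2 and SDHA had stage differences smaller in size than their primed-stage differences. The stage differences were −2.16, 0.43, 0.402 and −0.11, against primed-stage differences of −11.71, 9.71, 9.602 and −6.196. Without EpiLC replicate 2 that of ACTG1 was 1.01 and was called. The stage differences of POU5F1, SOX2 and DNMT3L spanned a wide range. For POU5F1 the stage difference was −0.092 (adjusted p = 0.383), whereas for SOX2 it was 3.65 and for DNMT3L −19.07. SOX2 stood at 146 and 162 TPM in naïve H9 and 1206 and 1149.7 TPM in naïve mESCs, so it was higher in the mouse cells at the naïve stage and higher in the human cells at the primed stage (stage difference 3.65, SE 0.11, adjusted p = 1.85e-23). DNMT3L stood at 3162 and 3343 TPM in naïve H9 and 63.2 and 61.6 TPM in naïve mESCs and thus turned from human-high to mouse-high (stage difference −19.07, SE 0.20, adjusted p = 7.37e-36). With 0 and 1 counts behind the primed H9 values, the size of that difference depends on the prior count of the fit, as does that of PTPRZ1 below.

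Further named genes told apart by stage came from the formative and signalling lists. ZIC2 stood at 4.53 and 5.14 TPM in naïve H9 and 83.1 and 66.5 TPM in naïve mESCs (stage difference 4.88, SE 0.16, adjusted p = 7.35e-23). THY1 was near 0 in naïve H9, at 0.094 and 0.126 TPM in naïve H9 and 2.49 and 3.29 TPM in naïve mESCs (stage difference 7.396, SE 0.41, adjusted p = 1.24e-16). PTPRZ1 was low in both naïve groups, at 0 and 0 TPM in naïve H9 and 0.229 and 0.346 TPM in naïve mESCs (stage difference 16.71, SE 0.88, adjusted p = 7.37e-17). SFRP1 stood at 16.6 and 15.8 TPM in naïve H9 and 263 and 254 TPM in naïve mESCs and was thus mouse-high before and human-high after the transition (stage difference 8.43, SE 0.12, adjusted p = 3.14e-32). The ligands WNT3 and FGF8 were human-high at the naïve stage and mouse-high at the primed stage. WNT3 stood at 44.5 and 43.3 TPM in naïve H9 and 0.908 and 1.04 TPM in naïve mESCs (stage difference −8.34, SE 0.28, adjusted p = 1.81e-22). FGF8 stood at 19.4 and 22.2 TPM in naïve H9 and 1.03 and 0.645 TPM in naïve mESCs (stage difference −9.098, SE 0.52, adjusted p = 1.98e-16). Further genes of the formative state turned the same way. DNMT3A stood at 47.4 and 46.2 TPM in naïve H9 and 9.73 and 8.24 TPM in naïve mESCs (stage difference −4.89, SE 0.11, adjusted p = 1.01e-26). OTX2 stood at 18.4 and 17.6 TPM in naïve H9 and 8.38 and 9.83 TPM in naïve mESCs (stage difference −2.37, SE 0.16, adjusted p = 8.27e-15). NODAL stood at 141 and 139.9 TPM in naïve H9 and 205 and 205 TPM in naïve mESCs with a stage difference of −4.75, beside a primed-stage difference of −4.94.

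**Figure D5:**
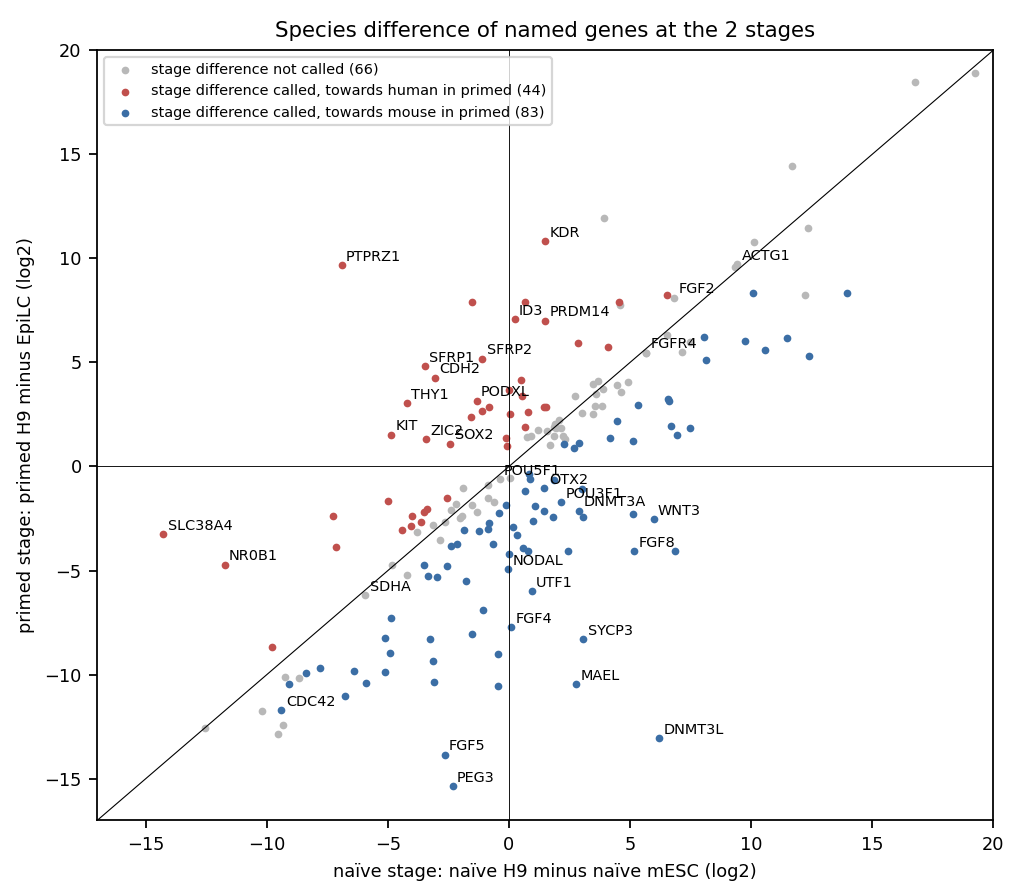
Log2 difference between human and mouse at the primed stage (primed H9 minus EpiLCs, vertical axis) against that at the naïve stage (naïve H9 minus naïve mESCs, horizontal axis), with each point one of the 193 named genes and coloured where the stage difference was called (red towards H9, blue towards EpiLCs). ACTG1 and SDHA lie near the diagonal of equal differences, while DNMT3L (lower right) and SOX2 (upper left) lie where the sign turns.

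RUES2-GLR, the second primed human line, is set beside H9 here. Its comparison with EpiLCs uses the same EpiLC libraries, and its high mitochondrial share lowers the TPM of all other genes. FGF5 and DNMT3L had no count in either RUES2-GLR library. SFRP2 stood at 2252 and 2497 TPM in primed RUES2-GLR, ZIC2 at 204 and 191 TPM in primed RUES2-GLR and PTPRZ1 at 173 and 155 TPM in primed RUES2-GLR, all above both EpiLC libraries. OTX2 stood at 105 and 90.9 TPM in primed RUES2-GLR, one within and one below the range of the EpiLC libraries, and its log2 difference to EpiLCs was 1.05 in RUES2-GLR and −1.05 in H9. DLK1 stood at 136 and 166 TPM in primed RUES2-GLR (log2 4.82 against −4.05 in H9), and CDH1 at 344 and 336 TPM in primed RUES2-GLR (log2 0.033 against −2.23). For OTX2 the sign turned only with TMM scaling, as its mean TPM was 97.8 in RUES2-GLR and 103 in EpiLCs. CDH1 was likewise lower than in EpiLCs in TPM, whereas DLK1 was higher on both scales. The difference between the human lines was not tested. With RUES2-GLR in place of H9, 4346 genes were higher in the human line and 3896 in EpiLCs of 12669 tested. Calls of named genes that were lost with RUES2-GLR were those of IGFBP3 (log2 −0.67), LAMB1 (−0.51), BMPR1A (−0.404), INSIG1 (−0.36), TAPBP (−0.29) and PHLDA2 (−0.18) on the EpiLC side. On the human side they were those of PEG10 (0.965), MBD1 (0.92), PYCR1 (0.54), JARID2 (0.18) and AEN (0.17). These log2 values carry the TMM scaling. In mean TPM, every gene named on the EpiLC side stayed lower in RUES2-GLR than in EpiLCs, such as IGFBP3 (14.2 and 48.2), LAMB1 (40.0 and 123.2) and PHLDA2 (34.3 and 83.9). Those named on the human side were also lower in RUES2-GLR in TPM, such as JARID2 (56.3 and 107.2) and AEN (27.9 and 54.0).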

How the data were processed

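The authors prepared polyadenylated RNA libraries (NEBNext Ultra II), sequenced them on a NextSeq instrument in more than one read-length configuration (which library had which is not given in the sources used here, so its part in the differences cannot be told apart), demultiplexed with bcl2fastq (2.20), trimmed with Trimmomatic (0.39), aligned with STAR to GRCh38 or GRCm39 and deposited raw counts per gene from featureCounts at default settings, with gene lengths, in 1 table per species. Depth per library is given above and limits what low genes can show.

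Genes were matched by symbol with GENCODE 44 (human) and M39 (mouse) names. Human lengths equalled GENCODE 44 for 44388 of 44876 genes and mouse lengths equalled M39 for 10461 of 29486, so shared exon bases in mouse are approximate. TPM used all genes of a table. The tests were edgeR (4.0.16) quasi-likelihood fits on counts with a length offset, TMM factors of length-divided counts and filterByExpr, on 4 libraries, or 8 for the stage difference, with Benjamini-Hochberg adjustment (R 4.3.3). Adjusted p-values in the text are edgeR's. The fit was tested on simulated counts. Folds against groups with no counts use a floor, the mean TPM that 3 counts in each library of the group would give. Folds against at most 3 counts per library are TPM ratios with 95% Poisson counting intervals, which cover counting error only. DESeq2 (1.42.0) and limma (3.58.1) were alternatives. Replicate numbers were not used to pair the samples, except in an alternative fit with a replicate block.

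The members and the 25 gene lists (461 of 475 listed symbols matched) were chosen with earlier results of these data known, so list counts are descriptions. Named were, per list and direction, at most 4 called genes with the largest difference and at least 10 TPM in the higher group, 17 fixed genes, the 12 largest differences per direction with at least 20 TPM and no overlap, the 6 highest genes per direction with at most 3 counts in each library of the other group, and the 5 ranked highest in both groups. AXIN2, BMP4 and PRDM1 were added after their values were seen. Y-linked genes were left out, and 5 genes that the rule named are not reported here.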

Additional observations from a re-analysis of the deposited data

Results flagged for a closer look

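In 27 named genes the human minus mouse difference had opposite signs at the naïve and the primed stage, both differences were called, and the test of the stage difference itself was called (edgeR's quasi-likelihood test over 13480 genes). Named genes were chosen partly by their primed-stage difference, so the number of such genes is a description. In 15 of them the human cells were higher at the naïve stage and the EpiLCs at the primed stage, with these stage differences on the log2 scale: DNMT3L −19.07, MAEL −13.07, SYCP3 −11.19, DLK1 −10.78, FGF8 −9.098, WNT3 −8.34, PHLDA2 −7.27, DDIT3 −6.36, DLL1 −5.301, DNMT3A −4.89, LAMB1 −4.100, ATF3 −3.95, POU3F1 −3.74, BTG2 −3.46, OTX2 −2.37. They include the methyltransferase genes DNMT3L and DNMT3A, the ligands FGF8, WNT3 and DLL1, the germ cell genes MAEL and SYCP3, the formative factors POU3F1 and OTX2, and the imprinted genes DLK1 and PHLDA2. In the other 12 the naïve mESCs were higher first and primed H9 later: SOX2 3.65, SOCS3 3.900, PDGFRB 4.09, PODXL 4.64, ZIC2 4.88, SFRP2 6.41, KIT 6.55, THY1 7.396, CDH2 7.47, SFRP1 8.43, TMEM132B 9.58, PTPRZ1 16.71. These include the WNT antagonists SFRP1 and SFRP2, the surface genes PODXL, THY1, CDH2 and PTPRZ1, and the factors SOX2 and ZIC2. Several rest on few counts in a low group: PTPRZ1 had none in naïve H9, and DNMT3L had 0 and 1 in primed H9, so the size of their fitted differences depends on the fit's prior count. MAEL had 1 and 4 counts and SYCP3 1 and 3 in primed H9, and the naïve difference of TMEM132B lay between means of 0.0467 and 0.201 TPM. THY1 had a mean of 0.11 TPM in naïve H9 and DLK1 one of 0.118 TPM in naïve mESCs. The primed-stage calls of ATF3, OTX2 and SOX2 depended on the setting (values above). With RUES2-GLR in place of H9, the primed-stage difference turned sign for DLK1 (4.82), OTX2 (1.05) and DLL1 (0.23). For OTX2 and DLL1 it turned only with TMM scaling. The calls of LAMB1 (−0.51) and PHLDA2 (−0.18) were lost with that line. With 2 samples a group, no sample was tested for lying apart from its group.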

How the results depend on the processing

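The direction and threshold calls of the named genes were mostly kept: of the log2 differences of 193 named genes recomputed under each alternative, 3056 values kept their call, 119 lost it, 23 gained one and 8 turned or gained the opposite direction. Of the stage differences, 2272 kept, 26 lost and 18 gained a call. With RUES2-GLR in place of H9, DLL1 became 0.23, DLK1 4.82, OTX2 1.05, CDH1 0.033, BST2 2.17, MT-ND1 1.91 and MT-CO1 3.41, and without division by gene length AEBP2 became −0.37. In TPM, DLL1 (means 9.88 and 17.9), OTX2 (97.8 and 102.8) and CDH1 (340.1 and 719) stayed lower in RUES2-GLR than in EpiLCs, so their turn appears only with TMM scaling. Leaving out 1 library took the call from MXD3 (−0.91 without primed H9 replicate 1), AEBP2 (0.95 without EpiLC replicate 1, 0.88 without primed H9 replicate 2) and OTX2 (−0.96 without primed H9 replicate 2), and gave SALL4 one (1.08 without EpiLC replicate 2, 1.02 without primed H9 replicate 2). The cause was not tested. Fold differences that moved by over 1.5 times without 1 library, beside that of ISG15 (values above), all kept their direction and call. The log2 differences were, without EpiLC replicate 1, COL4A6 13.27, OLFML3 8.48, RBM42 14.67. They were, without EpiLC replicate 2, ACTG1 10.32, COL4A6 6.11, COL6A1 8.97, FGF2 13.74, ID1 4.69, IRF7 4.85, KDR 10.18, OLFML3 7.098, PRDM14 8.44, PTPRD 8.63, RARRES2 14.55, RBM42 9.93, SOCS3 3.35, TMEM132B 8.54. They were, without primed H9 replicate 2, ACADL −12.46, CDKN2A −9.12, DDX4 −11.73, DNMT3L −14.78, FGF4 −8.48, FGF5 −12.81, FGF8 −5.001, FMR1NB −12.12, IFI30 −12.51, MT-CO3 18.31, NR0B1 −5.72, NUPR1 −12.74, NUSAP1 −13.72, PRPH −13.34, PSMA2 −9.57, SARNP −12.44, SOX1 −10.37, STK31 −11.104, TCEA3 −11.002, WNT8A −10.06.

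Counts higher in primed H9 and in EpiLCs fell to 2419 and 2180 of 7764 for genes whose lengths lay within 1.5 times of each other, to 1626 and 1248 above a log2 difference of 3, and to 1931 and 2225 for genes with at least 10 TPM in a group of each species, in each case over fewer genes or a stricter rule. Other settings stayed within 1.5 times: DESeq2 4071 and 3839, limma on log2(TPM + 1) 3905 and 3348, no length division 4008 and 3480, no filter 4506 and 4177, adjusted p alone 5909 and 5759. Leaving out 1 library each gave 4034 to 4337 and 3725 to 3999, and 2506 to 2728 and 2926 to 3224 for the stage difference. A group then has 1 library, assumed to vary like the other group.

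Spearman rho was 0.606 and Pearson r 0.626 for genes of at least 1 TPM in both, 0.789 and 0.793 on CPM, 0.774 and 0.778 for lengths within 1.5 times, 0.714 and 0.708 with RUES2-GLR, 0.774 and 0.777 with shared exon bases under 25%, and 0.578 and 0.614 for genes of at least 10 TPM in a group of each species. Without 1 library, rho was 0.753 to 0.756 and r 0.757 to 0.759.

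Replicate numbers were shared by the groups. Deviations of same-numbered libraries of primed H9 and EpiLCs correlated at 0.04 across genes. That correlation was not computed for the naïve groups, so pairing by number with them was not tested. With the replicate block, 4137 and 3924 genes were called, and 2687 and 3109 for the stage difference, and the block changed the call of no named gene except the stage difference of WNT8A (−6.32, no longer called).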

Other observations

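Levels in primed H9 were also set beside the other mouse groups, as a description across the 15225 matched genes. The Spearman rho of the primed H9 mean was 0.726 with naïve mESCs, 0.756 with EpiLCs, 0.746 with early mouse gastruloids and 0.757 with late mouse gastruloids. The values share the primed H9 libraries. For RUES2-GLR in its primed state, rho was 0.685, 0.714, 0.705 and 0.732 in the same order. For both human lines, naïve mESCs had the lowest of the 4 values.

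Summed levels were compared for a pair of lists whose members were called both ways. The PRC2 genes summed to 869 and 875 TPM in primed H9 and 1808 and 1796 TPM in EpiLCs, and the sums in naïve H9 and naïve mESCs lay further apart (368 and 346 TPM against 2987 and 2888 TPM). The glycolysis genes summed to 10892 and 10804 TPM in primed H9 and 11299 and 11329 TPM in EpiLCs, although 17 of 21 were called in one direction or the other. Large opposite differences enter these sums, in GAPDH (means 3952 TPM in primed H9 and 212 TPM in EpiLCs) and ALDOA (93.0 and 3211 TPM). GAPDH had at most 231 TPM in any mouse group and ALDOA at most 126 TPM in any human group. The part that counting plays in these sums was not tested.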
